A study of Schizosaccharomyces pombe with 5 samples.

Results

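The interval from 3.5 h to 6 h after nitrogen was given back to resting fission yeast was followed gene by gene. For each gene the log2 ratio on the 3.5 h array was subtracted from that on the 6 h array, so a positive difference means a higher value at 6 h. Of 4797 genes measured on 1 array or more, 4768 had both values and entered the comparison, and the other 29 lacked one. The cells were Schizosaccharomyces pombe of the heterothallic h minus strain L972, which makes M-type pheromone. They had spent 48 h without nitrogen at 26 °C, which leaves them in the resting state G0, and then received 4 volumes of complete minimal medium. On every array Cy5 marked polyadenylated RNA of the growing cells (6 h or 3.5 h here, with 1 h, 2 h and vegetative growth as context) and Cy3 marked that of G0 cells, per the labels. Each condition had 1 array and no experiment was repeated, so no difference below has a replicate check or a p-value. Nitrogen and fresh medium came together and cannot be told apart, and a free-text field of the 3.5 h, 6 h and vegetative samples speaks of 2 h, while titles and protocols, which were followed here, do not.

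A fission yeast cell that leaves G0 must rebuild its ribosomes, grow, copy its DNA and divide. Core histone mRNAs are made in S phase, when new DNA has to be wrapped, and the GATA-type factor Ams2 drives them. Assembly of ribosomes needs a large group of nucleolar factors, among them the small subunit (SSU) processome, which are known to be induced early in growth. Stress defence genes are commonly high in starved cells, the cAMP pathway reports the supply of glucose, and genes such as nmt1 respond to the supply of thiamine.

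A gene was called higher or lower when its difference reached 1 or -1, or 2-fold on the log2 scale, and this is a rule of size rather than a test. By this rule 197 genes (4.13% of 4768) were higher at 6 h and 136 (2.85%) were lower, in all 6.98% of the genes. At 4-fold there were 21 higher and 6 lower. The median difference over all genes was -0.09, and 5% of genes lay below -0.85 and 5% above 0.92. The base of the logarithm is assumed to be 2. It is not stated that both arrays used the same G0 RNA, and a difference between 2 preparations of it would enter every value here. Centring each array on its gene median, which shifts every difference by 0.10, turned the split into 254 higher and 94 lower, and centring each printing block gave 229 and 96. The ATPase subunit gene vma2 and SPAC5H10.03 lay just inside the upper threshold (1.004 and 1.001), with the pyruvate kinase gene pyk1 and SPBC1271.05c just outside it (0.992 and 0.991). At the lower threshold ubx3 and xap5 lay just inside (-1.001 and -1.002), with nop14 and SPAC11D3.11c just outside (-0.995 and -0.990).

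Error could be measured only from genes printed repeatedly on an array. The cyclin-dependent kinase gene cdc2 differed by -0.19 ± 0.25 (SD, 16 spots), the beta-tubulin gene nda3 by 0.14 ± 0.13 (SD, 15 spots) and the RNA polymerase I subunit gene nuc1 by -0.90 ± 0.11 (SD, 16 spots). The cdc2 spots ran from -0.57 to 0.35 and the nda3 spots from -0.21 to 0.29, whereas all 16 nuc1 spots were lower at 6 h, between -1.09 and -0.70. The nda3 values leave out 1 spot, which the authors' own averages at 1 h and 2 h also leave out, so they may understate the spread. These SDs are of single spots and not errors of the means, so they do not say that the cdc2 and nda3 means are 0. A further 12 positions with no gene name were printed in each of the 16 blocks. Their median difference was -0.51 over 191 spots, with position means between -0.70 and -0.37, and 14 spots (7.33%) lay at -1 or below and 1 at 1 or above. What those spots hold is not stated in the labels or annotation, and their part in list medians of similar size was not tested. Almost all genes (4764) had 1 spot, so their own spot error is unknown.

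**Figure D1:**
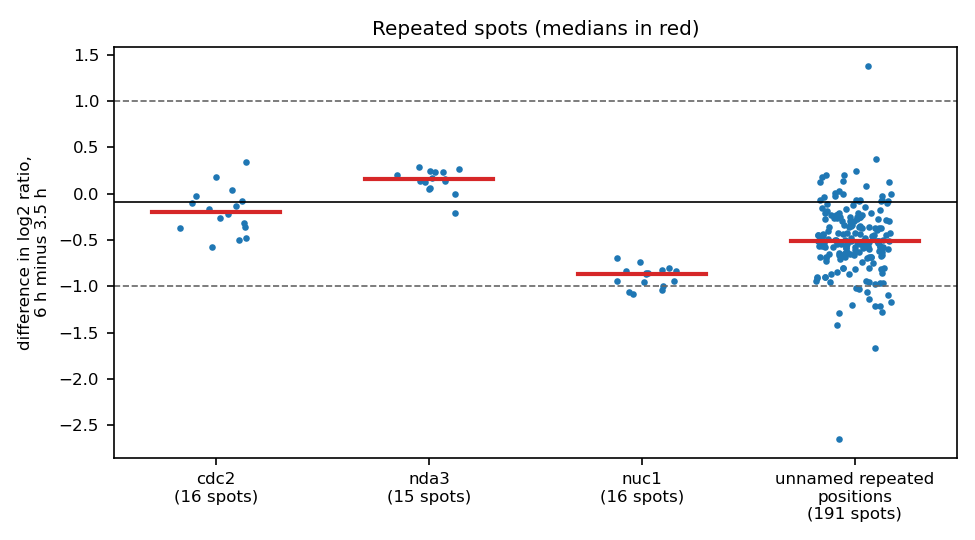
Difference in log2 ratio, 6 h minus 3.5 h, for single spots of the 3 genes printed in all blocks and of the 12 unnamed repeated positions. The plot leaves out 1 nda3 spot. Red bars are medians, the solid line is the median of all genes (-0.09) and dashed lines mark 1 and -1; the nuc1 spots and most unnamed spots lie below the line.

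The genes that were higher at 6 h mostly came from low values. Of the 197, 73 were within 2-fold of G0 at 6 h and at least 2-fold below it at 3.5 h, 51 were at least 2-fold below G0 at both times, and 30 were at least 2-fold above G0 at 6 h and within 2-fold at 3.5 h. Their median log2 ratio was -1.35 after 1 h, -1.87 after 2 h, -1.57 after 3.5 h, -0.14 after 6 h and 0.04 in vegetative growth. The genes that were lower at 6 h mostly came from high values. Of the 136, 62 were within 2-fold of G0 at 6 h and at least 2-fold above it at 3.5 h, and 21 were at least 2-fold above G0 at both times. Their median was 1.62 after 1 h, 1.80 after 2 h, 1.25 after 3.5 h, 0.09 after 6 h and 0.27 in vegetative growth. The 6 h and 3.5 h medians of both sets follow from how the genes were chosen. The 1 h, 2 h and vegetative values did not enter the choice, and in both sets the vegetative median lies within 0.2 of the 6 h one. Over all genes the medians were 0.04 at 6 h and 0.09 in vegetative growth. Both sets thus lay near the middle of all genes on both arrays, and what their closeness means was not tested. RNA was taken from whole cultures, so fewer cells of a kind and less RNA per cell cannot be told apart.

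**Figure D2:**
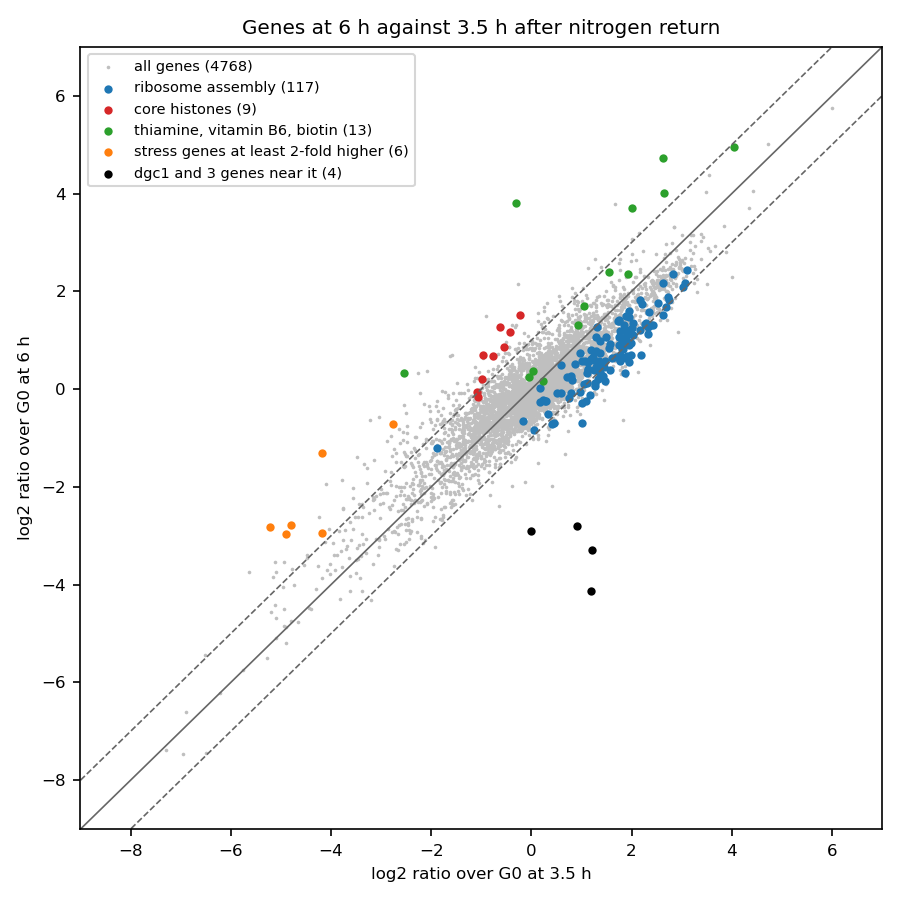
Log2 ratio over G0 at 6 h (vertical) against 3.5 h (horizontal) for 4768 genes. The solid line marks equal values and the dashed lines a difference of 1 either way; core histone genes lie above the diagonal, ribosome assembly genes mostly below it, and dgc1 with 3 genes near it far below it.

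Vitamin genes held the largest difference upwards. Of 13 measured genes of thiamine, vitamin B6 and biotin, 5 were at least 2-fold higher at 6 h and none lower. Over all genes 4.13% were higher and 2.85% lower. The list median was 0.85, against -0.09 for all genes. The thiamine synthesis gene nmt1 stood at 3.80 at 6 h, against -0.30 at 3.5 h, a difference of 4.10 and the highest of all genes. On the other arrays nmt1 had values of -0.69 after 1 h, -1.87 after 2 h and 3.06 in vegetative growth, so it was above G0 only at 6 h and in vegetative cells. The thiazole synthesis gene thi2 was at 0.34 at 6 h, against -2.54 at 3.5 h, with -0.77 after 1 h, -0.47 after 2 h and 0.87 in vegetative growth. For thi2, the 3.5 h value was the lowest of the 5, so its difference of 2.87 comes from a low start. The biotin transporter gene vht1 was at 4.73 at 6 h, against 2.62 at 3.5 h. The vitamin B6 synthesis gene snz1 was at 3.71 at 6 h, against 2.01 at 3.5 h. The thiamine-repressed acid phosphatase gene pho4 was at 4.01 at 6 h, against 2.65 at 3.5 h. These 3 genes were already above G0 at 1 h and had higher values on each later array of the time course.

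All 9 core histone genes measured were higher at 6 h than at 3.5 h, 8 of them at least 2-fold, and the list median was 1.44. The histone H2A gene hta1 was at -0.95 after 1 h, -2.04 after 2 h, -0.43 after 3.5 h, 1.16 after 6 h and 1.20 in vegetative growth. The second H2A gene, hta2, was at 1.27 at 6 h, against -0.63 at 3.5 h. The H2B gene htb1 was at 1.51 at 6 h, against -0.23 at 3.5 h, with -0.18 after 1 h, -1.02 after 2 h and 1.54 in vegetative growth. The H4 genes hhf1, hhf2 and hhf3 differed by 1.67, 1.44 and 1.42. The H3 genes hht1 and hht3 differed by 1.19 and 1.02, while hht2 (0.90) missed the threshold; with both arrays scaled to a common spread hht3 came to 0.93, and with blocks centred hht3 came to 0.86 and hht2 to 1.11. H2A and H2B genes ended well above G0 at 6 h, whereas the H3 genes were near it (0.21 for hht1, -0.06 for hht3 and -0.16 for hht2). Copies of a histone gene are nearly identical in sequence, so their spots may share signal and are not independent measurements.

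Some regulators of S phase were already above G0 on the 3.5 h array. The gene ams2 was at -0.54 after 1 h, 0.20 after 2 h, 2.45 after 3.5 h, 2.18 after 6 h and 1.90 in vegetative growth. The replication licensing gene cdc18 was at 0.10 after 1 h, 0.24 after 2 h, 2.67 after 3.5 h, 1.85 after 6 h and 1.55 in vegetative growth. The ribonucleotide reductase gene cdc22 was at 1.20 at 6 h, against 1.60 at 3.5 h, and the S phase cyclin gene cig2 at 3.31 at 6 h, against 2.85 at 3.5 h. None of these 4 differences reached 2-fold, and all 4 genes were at least 2-fold above G0 at both times while the histone genes were below G0 at 3.5 h. The wider lists were nearer to G0 at 3.5 h. Targets and regulators of the G1/S factor MBF had a median of 0.59, and replication genes 0.33, against 0.14 for all genes. The cell cycle gene rum1 was at -1.31 at 6 h, against -1.18 at 3.5 h. Of 18 genes of histone variants, chaperones and regulators none passed the threshold (median 0.01). The histone chaperone genes chz1 and asf1 had the largest positive differences of those named, 0.90 and 0.64.

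**Figure D3:**
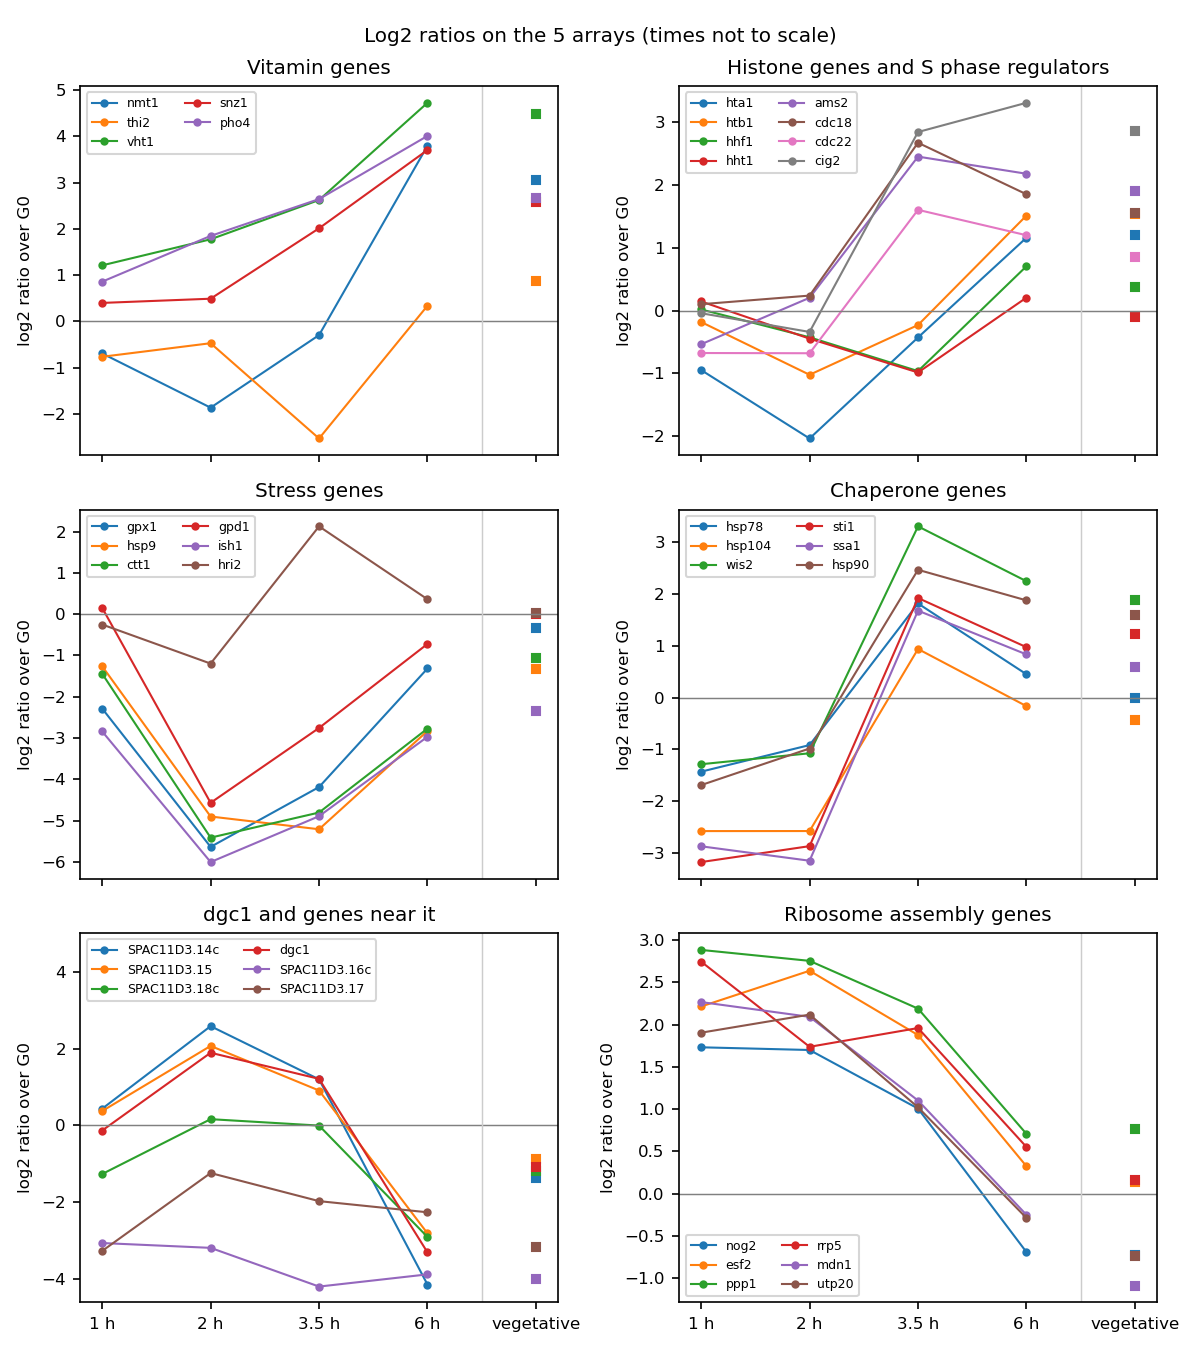
Log2 ratio over G0 on each of the 5 arrays for selected genes of 6 groups, with time points joined by lines (not to scale) and vegetative cells as squares. Histone genes are at their lowest at 2 h or 3.5 h and higher at 6 h, while ams2, cdc18, cdc22 and cig2 are already high at 3.5 h; each point is 1 array and 1 spot.

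Other lists of DNA replication and division held few genes past the threshold. Of 52 replication genes none was higher and 1 was lower (median -0.10), and of 24 targets and regulators of the G1/S factor MBF none was higher and 1 was lower (median -0.31, or -0.18 with arrays scaled). That gene is the same in both lists, the DNA polymerase epsilon gene cdc20, at 0.12 at 6 h, against 1.21 at 3.5 h; its difference of -1.09 came to -0.99 with arrays centred, -0.98 with arrays scaled and -0.84 with blocks centred. Among the 17 genes of Cdc2 kinase, its cyclins and controllers, the 30 forkhead-dependent and mitotic entry genes and the 19 of the anaphase-promoting complex and cyclin proteolysis, none passed the threshold as deposited. With arrays scaled the cyclin gene cig2 came to 1.00 and was the 1 gene higher in both the MBF and the Cdc2 lists, and the myosin gene myp2 of the forkhead list came to -1.15. The list of kinetochore, spindle and checkpoint genes had 0 of 42 higher and 1 lower (spc7, -1.03, or -0.93 with arrays centred), with a median of -0.25, and the 14 cohesin and condensin genes had a median of -0.28 with none past the threshold. The negative medians of MBF, kinetochore and cohesin lists lie between that of all genes (-0.09) and that of the unnamed repeated spots (-0.51).

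At 6 h the late cell cycle genes named here stood below their vegetative values, except cdc13, which stood above. The cell surface gene adg1 was at -0.82 at 6 h, against -0.27 at 3.5 h, and at 4.80 in vegetative cells. The septum glucanase gene eng1 was at 0.18 at 6 h, against 0.49 at 3.5 h, and at 2.82 in vegetative cells. The anaphase activator gene slp1 was at 0.87 at 6 h, against 1.42 at 3.5 h, and at 2.70 in vegetative cells. The polo kinase gene plo1 was at -0.12 at 6 h, against -0.68 at 3.5 h, and at 0.45 in vegetative cells. The forkhead factor gene fkh2 was at 0.30 at 6 h, against -0.30 at 3.5 h, and at 0.85 in vegetative cells. The mitotic activator gene cdc25 was at -1.02 at 6 h, against -1.51 at 3.5 h, and at -0.605 in vegetative cells. The inhibitor gene wee1 was at -1.12 at 6 h, against -1.15 at 3.5 h, and at -0.334 in vegetative cells. The mitotic cyclin gene cdc13 went the other way, at 0.33 at 6 h, against 0.51 at 3.5 h, and at -0.33 in vegetative cells. The median log2 ratio of the kinetochore, spindle and checkpoint list was -0.02 at 6 h and -0.09 in vegetative cells, and that of the cohesin and condensin list 0.12 at 6 h and -0.22 in vegetative cells. None of these single genes differed by 2-fold between 6 h and 3.5 h.

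Cytoskeletal genes differed in kind. With arrays centred, arrays scaled and blocks centred, 8, 3 and 6 of 29 actin and actin-binding genes were higher at 6 h. As deposited 4 were higher and none lower, beside 4.13% of all genes higher and 2.85% lower, and the median was 0.55. The 4 were cap1 (1.56), which encodes an adenylyl cyclase-associated actin-binding protein, the coronin gene crn1 (1.07), the tropomyosin gene cdc8 (1.05) and the Arp2/3 complex gene arc1 (1.03, or 0.86 with arrays scaled). Actin itself, act1, was at 0.82 at 6 h, against -0.07 at 3.5 h, and at 0.84 in vegetative cells. Of 18 tubulin and microtubule genes none was higher and 2 were lower (median 0.07). These were the plus-end protein gene mal3, at -0.10 at 6 h, against 1.00 at 3.5 h, and the tubulin cofactor gene alp1, at -0.54 at 6 h, against 0.63 at 3.5 h. The difference of mal3 came to -0.998 with arrays centred and that of alp1 to -0.92 with blocks centred.

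Ribosome assembly genes supplied the largest listed share of the genes that were lower at 6 h. Of 58 genes of the SSU processome and 40S assembly 14 were at least 2-fold lower (median -0.70), and of 59 genes of 60S assembly 21 were (median -0.92); none was at least 2-fold higher. Together these 117 genes make up 2.45% of all genes and 25.7% of those that were lower. With both arrays scaled to a common spread the numbers were 9 and 9, with medians of -0.50 and -0.71, and with arrays centred they were 11 and 13. The 60S assembly GTPase gene nog2 was at 1.73 after 1 h, 1.70 after 2 h, 1.01 after 3.5 h, -0.69 after 6 h and -0.72 in vegetative growth. The SSU gene esf2 was at 2.21 after 1 h, 2.64 after 2 h, 1.88 after 3.5 h, 0.32 after 6 h and 0.13 in vegetative growth. For both genes the 6 h value lay within 0.2 of the vegetative one.

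Further members were also lower at 6 h, with end levels nearer to or farther from vegetative growth. The 60S gene ppp1 was at 0.71 at 6 h, against 2.19 at 3.5 h and 0.76 in vegetative cells, and the rRNA processing gene rrp5 at 0.55 at 6 h, against 1.96 at 3.5 h and 0.16 in vegetative cells. The AAA-ATPase gene mdn1, which remodels pre-60S particles, was at -0.25 at 6 h, against 1.10 at 3.5 h and -1.09 in vegetative cells, and the SSU gene utp20 at -0.29 at 6 h, against 1.02 at 3.5 h and -0.74 in vegetative cells. List medians were 0.67 for SSU genes and 0.65 for 60S genes at 6 h, against 1.38 and 1.57 at 3.5 h, and 0.64 and 0.71 in vegetative cells. The median at 6 h was thus about that of vegetative cells in both lists. The 10 H/ACA and nucleolar RNP genes had a median difference of -0.55, or -0.21 with arrays scaled, with none past the threshold. Of 36 genes of RNA polymerases I and III, 2 were lower, ker1 (-1.34) and rpa34 (-1.05), and 1 was higher, maf1, the repressor of RNA polymerase III, at -1.32 at 6 h, against -2.51 at 3.5 h. With arrays scaled the differences of ker1, rpa34 and maf1 came to -0.86, -0.78 and 0.87, all inside the threshold.

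Ribosomal protein genes had smaller median differences than the assembly factors. None of the 75 large subunit and 43 small subunit genes passed the threshold in either direction. Their median differences were -0.43 and -0.42, and 74 of the 75 and 42 of the 43 were below 0. With arrays centred the medians were -0.33 and -0.32, and with blocks centred -0.30 for both. With both arrays scaled to a common spread these medians came to -0.01 and -0.02, so the direction depends on the scaling. These genes were far above G0, with medians of 2.22 for both lists at 6 h, against 2.59 and 2.69 at 3.5 h. Translation factors (33 genes, median -0.35) and aminoacyl-tRNA synthetases (20 genes, median -0.15) had no member past the threshold; with arrays scaled these medians were -0.02 and 0.06. In the list of purine and pyrimidine synthesis 1 of 23 genes was lower, the pyrimidine gene ura3, at 2.17 at 6 h, against 3.24 at 3.5 h, and its difference of -1.07 came to -0.97, -0.62 and -0.77 with arrays centred, arrays scaled and blocks centred.

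**Figure D4:**
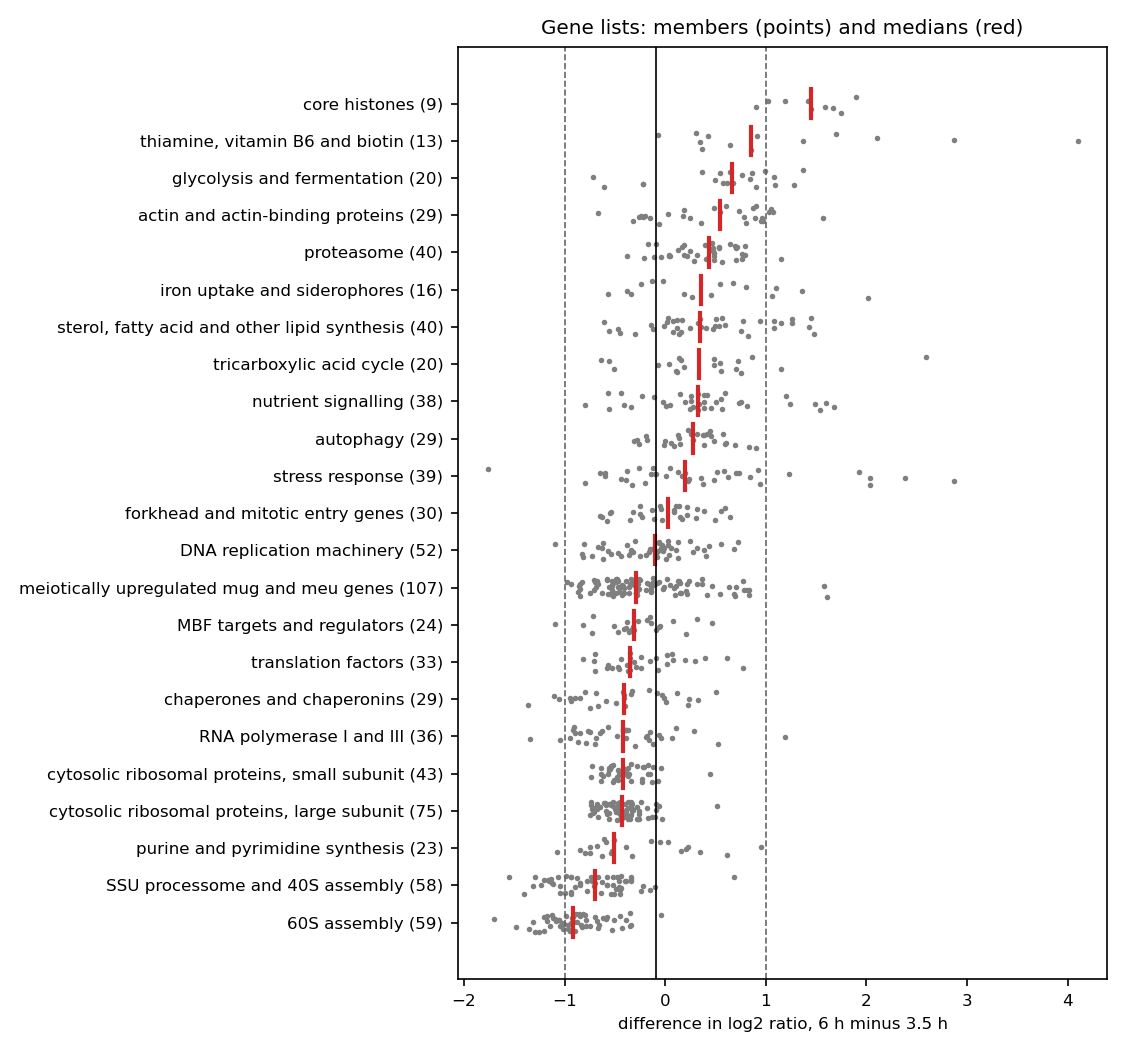
Difference in log2 ratio, 6 h minus 3.5 h, for members (points) of 23 gene lists with the number measured in brackets; red bars are list medians, the solid line the median of all genes and dashed lines 1 and -1. Core histones stand at the top (median 1.44) and 60S assembly factors at the bottom (median -0.92), with ribosomal protein genes in a narrow band near -0.43.

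A few stress defence genes that were far below G0 at 3.5 h were less so at 6 h. Of 39 genes 6 were higher and 1 was lower, beside 4.13% of all genes higher and 2.85% lower. The median difference was 0.20. With arrays scaled 5 were higher and 2 lower and the median was 0.02, so the list has no clear direction. The median log2 ratio of the list was -1.05 at 6 h, against -0.79 at 3.5 h. The glutathione peroxidase gene gpx1 was at -2.29 after 1 h, -5.64 after 2 h, -4.19 after 3.5 h, -1.32 after 6 h and -0.34 in vegetative growth. The small heat shock gene hsp9 was at -1.26 after 1 h, -4.90 after 2 h, -5.21 after 3.5 h, -2.83 after 6 h and -1.33 in vegetative growth. The catalase gene ctt1 was at -2.77 at 6 h, against -4.80 at 3.5 h, and the glycerol-3-phosphate dehydrogenase gene gpd1 at -0.72 at 6 h, against -2.76 at 3.5 h. These 4 genes were lowest at 2 h or 3.5 h and were below their vegetative level at 6 h. The other 2 were ish1 (1.92) and the glutathione S-transferase gene gst3 (1.23). The 1 lower gene was hri2, which encodes a kinase of the translation factor eIF2 alpha, at 0.36 at 6 h, against 2.13 at 3.5 h.

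A few chaperone genes were lower at 6 h. Of 29 genes none was higher and 3 were lower, beside 4.13% of all genes higher and 2.85% lower. The median was -0.41, or -0.22 with arrays scaled. The 3 were the mitochondrial chaperone gene hsp78 (-1.37), the disaggregase gene hsp104 (-1.10) and the cyclophilin gene wis2 (-1.06). The gene hsp78 was at -1.43 after 1 h, -0.92 after 2 h, 1.82 after 3.5 h, 0.45 after 6 h and -0.01 in vegetative growth. The gene hsp104 was at -2.58 after 1 h, -2.58 after 2 h, 0.94 after 3.5 h, -0.17 after 6 h and -0.43 in vegetative growth. Both were highest at 3.5 h. Of these genes wis2 came to -0.96 with arrays centred, -0.59 with arrays scaled and -0.81 with blocks centred, and hsp104 to -0.89 with blocks centred. The co-chaperone gene sti1 was at 0.97 at 6 h, against 1.92 at 3.5 h.

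Some genes of nutrient signalling were among the higher ones. Of 38 genes 6 were at least 2-fold higher and none lower, beside 4.13% of all genes higher and 2.85% lower. The list median was 0.33. Both list counts were the same with arrays centred, arrays scaled and blocks centred, but with arrays scaled the median came to 0.17. The gene cgs1, whose product is the inhibitory subunit of protein kinase A, was at -1.44 after 1 h, -4.05 after 2 h, -3.29 after 3.5 h, -1.61 after 6 h and -0.69 in vegetative growth. The G protein alpha subunit gene gpa2 was at -2.14 after 1 h, -2.60 after 2 h, -0.97 after 3.5 h, 0.63 after 6 h and 0.12 in vegetative growth. The beta subunit gene git5, which acts with gpa2 in glucose sensing, was at -2.02 at 6 h, against -3.56 at 3.5 h. The other 3 were ssp2 (1.49), the AMP-activated kinase catalytic subunit gene, ppa2 (1.24), a catalytic subunit gene of phosphatase PP2A, and igo1 (1.21), which encodes an endosulfine that inhibits PP2A; ppa2 and igo1 were named after their values were seen.

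Carbon metabolism lists had medians on both sides of 0. None of 6 hexose transporter genes passed the threshold (median -0.35). Of 10 genes of gluconeogenesis, sucrose and glycerol use 1 was higher, gpd1, and the median was -0.08, or -0.265 with arrays scaled. Of 20 glycolysis and fermentation genes 4 were higher and none lower (median 0.66), beside 4.13% of all genes higher and 2.85% lower. The median log2 ratio of that list was 0.12 at 6 h, against -0.61 at 3.5 h. The phosphoglycerate kinase gene pgk1 was at -5.38 after 1 h, -5.15 after 2 h, -1.75 after 3.5 h, -0.38 after 6 h and 0.29 in vegetative growth. The glyceraldehyde-3-phosphate dehydrogenase genes gpd3 and tdh1 differed by 1.28 and 1.09; they are close copies whose spots may share signal, and tdh1 came to 0.93 with arrays scaled or blocks centred. The hexokinase gene hxk1 was at 0.57 at 6 h, against -0.51 at 3.5 h, and its difference of 1.08 came to 0.92 with blocks centred. Of 20 tricarboxylic acid cycle genes 2 were higher, the malic enzyme gene mae2 and dld1 (1.15), beside 4.13% of all genes. The list median was 0.34, or 0.21 with arrays scaled. The value of mae2 was -0.51 after 1 h, -2.82 after 2 h, -2.27 after 3.5 h, 0.33 after 6 h and 0.82 in vegetative growth. Of 41 respiratory chain and ATP synthase genes 2 were higher, inh1 (1.37, or 0.93 with arrays scaled) and atp17 (1.14), which is close to the 4.13% of all genes, and the median was 0.09.

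Membrane lipid genes held 8 higher members of 40 and none lower, beside 4.13% of all genes higher and 2.85% lower. The list median was 0.35. The sterol desaturase gene erg31 was at -2.07 after 1 h, -0.93 after 2 h, 0.31 after 3.5 h, 1.76 after 6 h and 2.73 in vegetative growth. The fatty acyl-CoA ligase gene lcf1 was at 0.97 at 6 h, against -0.51 at 3.5 h. The acetyl-CoA ligase gene acs1 was at 1.68 at 6 h, against 0.25 at 3.5 h. The other 5 were cho1 (1.26), the acetyl-CoA carboxylase gene cut6 (1.26), erg10 (1.15), erg1 (1.08) and the fatty acid desaturase gene ole1 (1.08). By name cut6, erg10, erg1 and ole1 were singled out after their values were seen. Of the 8, erg31, acs1, cho1, cut6 and erg10 were at least 2-fold above G0 at 6 h, whereas all 6 higher stress genes were below G0 at that time. Triglyceride breakdown was represented by the lipase gene ptl2, among the 15 highest differences, at 0.70 at 6 h, against -1.59 at 3.5 h.

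Metal genes were mixed. Of 16 iron uptake and siderophore genes 4 were higher and none lower (median 0.36), beside 4.13% of all genes higher and 2.85% lower. The siderophore synthesis gene sib3 was at -0.48 at 6 h, against -2.50 at 3.5 h, the iron permease gene fip1 at 1.91 at 6 h, against 0.55 at 3.5 h, and the ferroxidase gene fio1 at 3.08 at 6 h, against 2.02 at 3.5 h. The gene str3 was at 2.49 at 6 h, against 1.39 at 3.5 h. Of 10 copper and zinc genes 1 was higher, the vacuolar copper transporter gene ctr6 (1.16, or 0.93 with arrays scaled), and 1 lower, the plasma membrane copper transporter gene ctr4 (-1.33), which came to -0.88 with arrays scaled. The transcription factor gene cuf2 was named for its place among the 15 lowest differences and not as a member of the copper and zinc list. It was at -0.22 at 6 h, against 1.45 at 3.5 h, and at -2.12 in vegetative cells.

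Nitrogen genes also split. Of 7 genes of ammonium and glutamate-glutamine, the ammonium transporter gene amt3 was at 0.46 at 6 h, against -1.12 at 3.5 h, and the catabolic glutamate dehydrogenase gene gdh2 at 0.73 at 6 h, against -0.67 at 3.5 h and -1.38 in vegetative cells. The list median was -0.29 but its mean was 0.27, so the list as a whole has no direction. In the 19 permease and amino acid use genes 3 were higher and 4 lower (median 0.00), beside 4.13% of all genes higher and 2.85% lower. The amino acid permease gene aat1 was at 5.86 after 1 h, 6.48 after 2 h, 4.00 after 3.5 h, 2.30 after 6 h and 1.84 in vegetative growth. The peptide transporter gene ptr2 was at -2.17 at 6 h, against -0.82 at 3.5 h. The permease gene isp5 (1.32), the protease gene isp6 (1.09) and the proline dehydrogenase gene put1 (1.31) were higher; isp5 and isp6 came to 0.55 and 0.42 with arrays scaled, and both were more than 8-fold below G0 at 6 h. The 29 autophagy genes had a median of 0.28, which came to -0.02 with arrays scaled, and none passed the threshold. Among 40 proteasome genes 1 was higher, rpt3 (1.16), and the median was 0.43.

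As deposited, mating genes passed the threshold about as often as all genes did, of which 6.98% passed in either direction. Of 27 genes of mating and sexual differentiation 1 was higher, the kinase gene byr1 (1.38), and 1 was lower, ste6, which encodes an exchange factor of Ras1 (-1.76); the median was 0.03 and came to -0.34 with arrays scaled. The M-factor genes mfm1 and mfm3 were at -6.22 and -6.61 at 6 h, against -6.21 and -6.89 at 3.5 h. With arrays scaled 3 genes of the list were lower in place of 1, and the differences of mfm1 and the formin gene fus1, which were -0.01 and -0.78 as deposited, came to -1.09 and -1.07. The sexual differentiation factor gene ste11 was at -0.55 at 6 h, against -1.08 at 3.5 h, and at -2.31 in vegetative cells. The P-cell receptor gene map3 was at 1.15 at 6 h, against 1.42 at 3.5 h, and the P-cell gene map4 at -0.69 at 6 h, against -0.35 at 3.5 h. A ratio to G0 does not say how much of such an RNA was present in cells of this M-type strain. Of 107 genes named as meiotically upregulated 2 were higher and none lower as deposited, beside 4.13% of all genes higher and 2.85% lower. The 2 were mug111 (1.61) and mug191 (1.58, or 0.84 with arrays scaled), and the list median was -0.29. With arrays scaled 3 of these genes were lower.

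The 4 lowest differences of all genes lay close together on chromosome I. SPAC11D3.14c was at 0.44 after 1 h, 2.58 after 2 h, 1.20 after 3.5 h, -4.14 after 6 h and -1.37 in vegetative growth. The gene dgc1 was at -0.13 after 1 h, 1.89 after 2 h, 1.21 after 3.5 h, -3.30 after 6 h and -1.07 in vegetative growth. SPAC11D3.15 was at -2.81 at 6 h, against 0.91 at 3.5 h, and SPAC11D3.18c at -2.90 at 6 h, against -0.003 at 3.5 h. All 4 were lower at 6 h than on any other array. In the gene order of the RefSeq table, SPAC11D3.14c and SPAC11D3.15 are neighbours, as are SPAC11D3.18c and dgc1, and the 2 genes between these pairs differed little, with 0.32 for SPAC11D3.16c and -0.29 for SPAC11D3.17. Those 2 were below G0 on all 5 arrays. Each of these genes had 1 spot.

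**Figure D5:**
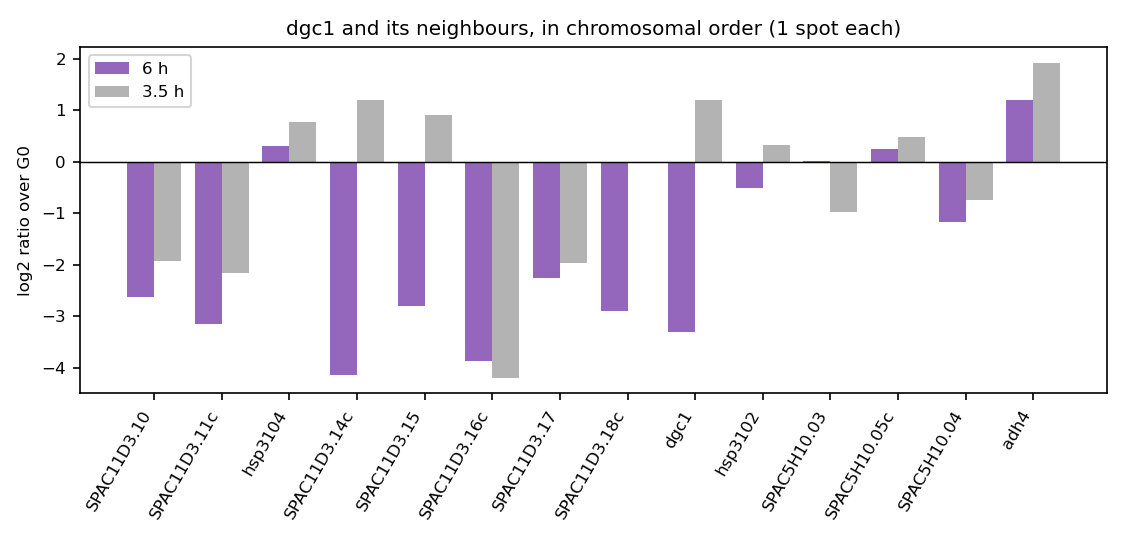
Log2 ratio over G0 at 6 h (purple, left) and 3.5 h (grey, right) for dgc1 and the genes around it in chromosomal order. SPAC11D3.14c, SPAC11D3.15 and dgc1 are above 0 at 3.5 h and below -2.5 at 6 h, SPAC11D3.18c is at 0 at 3.5 h, and the other genes shown keep closer values.

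Some other called genes were neighbours as well. Among the higher genes found in the RefSeq table, 33 of 195 (16.9%) adjoined another higher gene, in 16 runs, and among the lower ones 17 of 135 (12.6%) did, in 8 runs. Of all 4718 measured genes in that table, 7.59% lay next to a higher gene and 5.26% next to a lower one; whether the called genes cluster was not tested. The runs include the divergent histone pairs hta1 with htb1, hhf1 with hht1 and hhf3 with hht3, and the iron genes fip1 with fio1, whose proteins work as a pair. One run of 3 lower genes held SPBC359.01 (-1.75), the alanine racemase gene alr2 (-1.06) and aat1 (-1.70). SPBC359.01 was at 5.44 after 1 h, 5.20 after 2 h, 2.93 after 3.5 h, 1.18 after 6 h and 1.40 in vegetative growth, a course like that of aat1. Another run paired snz1 with spd1 (1.41), whose product inhibits ribonucleotide reductase, at -1.08 at 6 h, against -2.49 at 3.5 h. Genes named here only as run members were singled out after their values were seen.

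A few of the lowest differences came from the 6 h array standing apart from the other 4. The GPI anchor mannosyltransferase gene gpi14 was at 0.53 after 1 h, 0.17 after 2 h, 0.41 after 3.5 h, -1.99 after 6 h and 0.42 in vegetative growth. The gene rgp1 was at 0.50 after 1 h, 0.62 after 2 h, 0.66 after 3.5 h, -1.34 after 6 h and 0.33 in vegetative growth. Both are single spots, and whether the 6 h values would repeat was not tested. The serine racemase gene sry1 was at -0.44 after 1 h, 0.66 after 2 h, 1.83 after 3.5 h, -0.62 after 6 h and -0.51 in vegetative growth, so there the 3.5 h array stood apart.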

How the data were processed

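The deposited table held 5184 spots in 16 blocks and 4 rows that were left out. Its values are log2 ratios of growing over G0 cells as the authors deposited them, with the direction from the dyes, per the labels, and base 2 assumed. The sources used here do not say how images were analysed or how ratios were corrected and normalized. Without intensities dim spots could not be filtered and the number of arrays limits the precision. Platform annotation named 1 gene for 4865 spots. Of these, 4839 matched the RefSeq gene table of ASM294v3, which gave names and gene order. Spots of a gene were averaged, with 1 discordant nda3 spot left out.

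Differences were 6 h minus 3.5 h, counted at 1 and -1. The members and the 47 gene lists were chosen with earlier results of these data known. Named genes were the 15 highest and 15 lowest differences, up to 4 genes per list by absolute difference, all core histones and a set of markers; not all are printed. List entries whose symbol now names an unrelated gene were removed by identity. Counting at the threshold was run on simulated data whose planted differences lay far from the threshold. That run checked the code only and says nothing of genes near the threshold. Alternatives were centring, scaling to a common median absolute deviation, block centring, spot handling, gene filters, a 3-fold rule and list means. Python 3.11.15, numpy 2.4.6 and pandas 2.3.3 were used. Sequences and promoters were not analysed here, and 1 item is not reported here.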

Additional observations from a re-analysis of the deposited data

How the results depend on the processing

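No result below has a test, so an alternative can only move a value. The counts of 197 higher and 136 lower genes became 48 and 17 at 3-fold, 254 and 94 with arrays centred, 229 and 96 with blocks centred, and 174 and 149 with both arrays scaled to a common spread; they were the same with medians or first spots. The median absolute deviation was 0.60 at 6 h and 0.71 at 3.5 h. List medians that moved by more than the pooled spot SD of 0.18 did so as follows. With arrays scaled: SSU -0.495, 60S -0.707, H/ACA -0.212, large and small subunit ribosomal proteins -0.006 and -0.015, translation factors -0.023, aminoacyl-tRNA synthetases 0.055, vitamins 1.195, sulfate 0.081 (from -0.13), purine and pyrimidine -0.223, gluconeogenesis -0.265, chaperones -0.22, autophagy -0.019, vacuolar hydrolases 0.009, mating -0.344 and P-cell genes -0.047. With blocks centred: Cdc2 and cyclins 0.058 (from -0.13), ammonium 0.012, purine and pyrimidine -0.319, tricarboxylic acid cycle 0.533, vacuolar hydrolases 0.43 and P-cell genes -0.059. As list means: vitamins 1.224, ammonium 0.27, purine and pyrimidine -0.29, gluconeogenesis 0.107 and P-cell genes -0.067. The cause of these shifts was not tested. Block medians of the difference ran from -0.26 to 0.15. Of 241 genes named by the rule, 33 crossed the threshold with arrays scaled, 15 with arrays centred and 24 with blocks centred; mam2 (0.63) came to -0.21 with arrays scaled. Promoter motif shares were planned and not run, since no sequence was given. No paired analysis was possible because each condition had 1 array. Signal over background was not available for use here.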

Other observations

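The unnamed spots repeated in each block had median log2 ratios of 0.55 after 1 h, 0.11 after 2 h, 0.65 after 3.5 h, 0.15 after 6 h and 0.34 in vegetative growth. Over their 12 positions the pooled SD of the difference between 6 h and 3.5 h was 0.40, against 0.18 for cdc2, nda3 and nuc1.

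Outside those positions, 103 spots with no gene name gave a median difference of -0.24. Of these spots, 4 were at least 2-fold higher at 6 h and 5 at least 2-fold lower, between 1.93 and -1.45. Over all genes 4.13% were higher and 2.85% lower, and a departure of these spots from those shares was not tested. The spot with the highest difference was at -0.49 after 1 h, -2.81 after 2 h, -2.08 after 3.5 h, -0.14 after 6 h and 0.44 in vegetative growth. Among 22 spots that name several genes none was higher and 4 were lower, with a median of -0.12.

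Genes known only by a systematic identifier made up 56 of the 197 higher and 23 of the 136 lower genes. Their share among all genes was not counted, so these counts do not say whether such genes were over-represented. Among the higher ones SPCC576.02 was at -0.89 after 1 h, -0.12 after 2 h, -0.27 after 3.5 h, 2.15 after 6 h and 0.70 in vegetative growth, so its 6 h value was the highest of the 5. SPCC191.03c, next to acs1 in the gene order, was at 1.49 at 6 h, against -0.90 at 3.5 h, and at 2.92 in vegetative cells.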
